A study of Homo sapiens with 4 samples.

Results

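The genes described here encode the proteins that mark replication origins, load and fire the replicative helicase and copy DNA at the fork. They are 48 human genes chosen by function as a list of symbols and found in the count table by Ensembl identifier, among 58037 genes in all. All 48 were present, and all 48 passed the filter on low counts together with the rest of the 15718 tested genes. The lowest count of any of them in any library was 359, so none of them passed the filter through 1 condition alone. RNA-Seq was performed in OCI-AML3, an established human AML cell line that carries mutated NPM1 (mtNPM1) beside the wild-type allele. Cells were harvested 3 days (72 h) after transfection with sgNPM1A, a CRISPR-Cas9 guide against mtNPM1, or with the control guide sgNeg, which the study calls sgRNA Ctrl. There were 2 libraries per condition and 4 in all. All 4 libraries share the cell line and therefore its heterozygous DNMT3A and homozygous NRAS mutations, and they differ by label only in the guide. The model is a single line, and the share of edited alleles cannot be read from gene counts.

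Replication starts with the origin recognition complex (ORC), which together with CDC6 and CDT1 loads the ring-shaped MCM2-7 helicase onto DNA during G1 phase. Geminin, the product of GMNN, binds CDT1 and blocks reloading. At the start of S phase the DBF4-dependent kinase (CDC7 with its activating subunit DBF4) and cyclin-dependent kinases let CDC45 and the GINS complex join MCM2-7 to form the active helicase, with the help of MCM10. Polymerase alpha with primase then makes primers, polymerases epsilon and delta copy the strands on the PCNA clamp, which replication factor C (RFC) loads, RPA coats single-stranded DNA, and FEN1, DNA2 and LIG1 finish Okazaki fragments. Many of these genes are known targets of E2F transcription factors and are transcribed mostly in late G1 and S phase of dividing cells.

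The libraries held between 25069484 and 28276391 counts, so that 3 counts corresponded to between 0.106 and 0.120 CPM, a floor that covers counting error only. NPM1, the targeted gene, had 1319 and 1385 CPM (counts scaled to library size with TMM normalization) with sgNeg and 1189 and 1132 CPM with sgNPM1A. All sgNPM1A values were below all sgNeg values, and the log2 fold change was -0.22 (standard error, SE, 0.07, adjusted p = 0.0360 by edgeR's quasi-likelihood test, as for all adjusted p below). Reads of mutant and wild-type NPM1 were not separated in the counts. The adjusted p was 0.0747 without sgNeg 2, 0.203 without sgNPM1A 1 and 0.431 without sgNPM1A 2. With limma-trend on quantile-normalized values NPM1 had -0.42 (adjusted p = 0.00109), past the fold threshold described below. The myeloid markers CD33, PTPRC, SPI1, ANPEP and MPO were all present, and 3 of these were called higher with sgNPM1A. MPO, a granule enzyme, had 2.793 and 3.243 CPM with sgNeg and 10.15 and 10.52 CPM with sgNPM1A (log2 fold change 1.77, adjusted p = 7.52e-06). SPI1, the gene of the transcription factor PU.1, had 452.0 and 494.9 CPM against 675.6 and 643.4 CPM (0.48, adjusted p = 0.000552), and ANPEP, the surface peptidase CD13, had 75.77 and 82.09 CPM against 108.0 and 114.0 CPM (0.49, adjusted p = 0.000528). The lymphoid markers CD3E and MS4A1, the epithelial markers EPCAM and KRT19 and the erythroid marker HBB had 0 counts in every library, and the epithelial marker CDH1 had at most 1 count in a library. A gene was called at an adjusted p under 0.05, over all tested genes, and at least a 1.25-fold change, the threshold used in the study. By this rule 20.8% of the tested genes were called, 10.5% higher and 10.3% lower with sgNPM1A. With 2 libraries per condition the smallest two-sided p of an exact permutation test is 0.333, and the calls therefore depend on the variance that edgeR shares between genes.

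Of the replication genes, 4 were called lower and 1 higher, and their promoters are shown here because E2F sites near the start are what many replication genes have in common. The windows are those of RefSeq on GRCh38.p14 and run 5′ to 3′ on the gene's strand from 250 bases before to 50 bases after the annotated start. Capitals mark an E2F match, searched as TTTGGCGC, TTTCCCGC, TTTGCCGC or TTTCGCGC on both strands. CDC6 lies on the + strand (chr17:40287629-40287928), CLSPN on the - strand (chr1:35769929-35770228), GINS3 on the + strand (chr16:58392221-58392520), MCM10 on the + strand (chr10:13161308-13161607) and DBF4 on the + strand (chr7:87876243-87876542).
CDC6: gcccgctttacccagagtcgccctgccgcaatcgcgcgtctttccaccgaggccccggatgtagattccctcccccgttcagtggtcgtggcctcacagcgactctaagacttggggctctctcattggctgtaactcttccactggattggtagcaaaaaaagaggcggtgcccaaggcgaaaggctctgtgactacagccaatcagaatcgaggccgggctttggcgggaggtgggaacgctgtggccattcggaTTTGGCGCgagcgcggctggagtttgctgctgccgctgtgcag
CLSPN: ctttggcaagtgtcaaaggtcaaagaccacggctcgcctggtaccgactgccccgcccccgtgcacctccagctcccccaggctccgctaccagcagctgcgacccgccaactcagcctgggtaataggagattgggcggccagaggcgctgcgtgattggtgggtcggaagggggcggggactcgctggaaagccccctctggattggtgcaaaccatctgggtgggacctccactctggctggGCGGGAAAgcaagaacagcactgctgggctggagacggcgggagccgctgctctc
GINS3: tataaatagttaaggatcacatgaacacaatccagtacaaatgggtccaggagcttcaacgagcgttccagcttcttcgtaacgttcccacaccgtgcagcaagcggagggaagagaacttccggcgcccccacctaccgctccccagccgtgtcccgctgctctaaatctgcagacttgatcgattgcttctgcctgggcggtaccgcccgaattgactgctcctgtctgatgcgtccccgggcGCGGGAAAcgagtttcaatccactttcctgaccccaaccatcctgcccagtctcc
MCM10: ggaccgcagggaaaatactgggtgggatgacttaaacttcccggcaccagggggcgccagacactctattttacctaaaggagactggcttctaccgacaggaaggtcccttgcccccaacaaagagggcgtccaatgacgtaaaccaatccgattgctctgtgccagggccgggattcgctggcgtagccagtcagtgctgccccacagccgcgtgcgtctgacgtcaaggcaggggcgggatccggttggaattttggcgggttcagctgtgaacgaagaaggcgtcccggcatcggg
DBF4: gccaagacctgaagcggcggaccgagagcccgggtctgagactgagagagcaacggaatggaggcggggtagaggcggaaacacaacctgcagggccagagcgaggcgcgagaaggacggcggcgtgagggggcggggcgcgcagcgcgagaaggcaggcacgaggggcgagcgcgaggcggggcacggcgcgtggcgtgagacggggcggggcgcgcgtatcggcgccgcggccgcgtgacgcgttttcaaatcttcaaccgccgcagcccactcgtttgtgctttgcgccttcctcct

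In CDC6 the match TTTGGCGC began at base 8 of the transcript, counting the start as 1. In CLSPN and GINS3 the match read GCGGGAAA, the reverse complement of TTTCCCGC, and began 5 bases before the start. In CLSPN it overlapped the last of 4 GC boxes (GGGCGG), and the same window held 3 CCAAT boxes, all on the reverse strand. The windows of MCM10 and DBF4 held none of the 4 E2F words, and no match says only that these letters are not in the window. The windows of MCM10 and CDC6 held TTTGGCGG, which differs from TTTGGCGC in the last base and was not searched. DBF4 held the word TTCAAA, the reverse complement of TTTGAA, the core of the cell cycle homology region (CHR), 3 bases before its start. A window was found for 41 of the 48 genes, all except MCM4, MCM5, POLD3, RPA2, RPA3, GINS4 and DNA2. An E2F word stood in at least 1 window of 21 of the 41 genes (51.2%), against 3.99% of 27305 genes with a window. CCAAT was found in 58.5% of them against 39.7%, GGGCGG in 78% against 48.3%, and TTTGAA in 1 gene, DBF4 (2.44%), against 18.2%. The 27305 genes are all genes with a window and not only the 15718 tested genes. What expression or base content adds to these differences was not tested. The genes with an E2F word had a median log2 fold change of -0.11 with 14 of 21 below 0, and 3 of them were called lower. The genes without one had a median of -0.08 with 15 of 20 below 0, and 1 was called lower and 1 higher. Of all tested genes, 49.97% were below 0, 10.3% were called lower and 10.5% higher. The difference between genes with and without an E2F word was not tested.

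Most of the replication genes were slightly lower with sgNPM1A, but few changed past the threshold. Of the 48 genes, 33 had a log2 fold change below 0 and 15 above, so 68.75% were below 0 against 49.97% of all tested genes. The median log2 fold change was -0.09, against 0.00 over all tested genes. MCM10, CDC6, GINS3 and CLSPN fell, which is 8.333% of the genes beside 10.3% of all tested genes, and DBF4 rose, which is 2.083% beside 10.5%. Together 10.42% were called, fewer than the 20.8% of all tested genes. Of these called genes, only DBF4 was called each time a library was left out. Without sgNeg 2, MCM7 was called lower and CLSPN was not. The fold changes of the replication genes were also small in size, with a median absolute log2 fold change of 0.13 against 0.22 over all tested genes. An adjusted p under 0.05 without regard to fold was found for 10 genes lower, beside 13.1% of all tested genes in that direction, and for 2 higher, beside 12.9%. The number of lower genes shrank each time a library was left out, as did the share of all tested genes. Both shrank most without an sgNPM1A library. In 25 genes both sgNPM1A libraries lay below both sgNeg libraries, where 31.7% of all tested genes did, and in 10 both lay above, where 31.4% did. In the other 13 the conditions overlapped. In bulk RNA, fewer cells in S phase and less RNA per cell cannot be told apart.

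**Figure D1:**
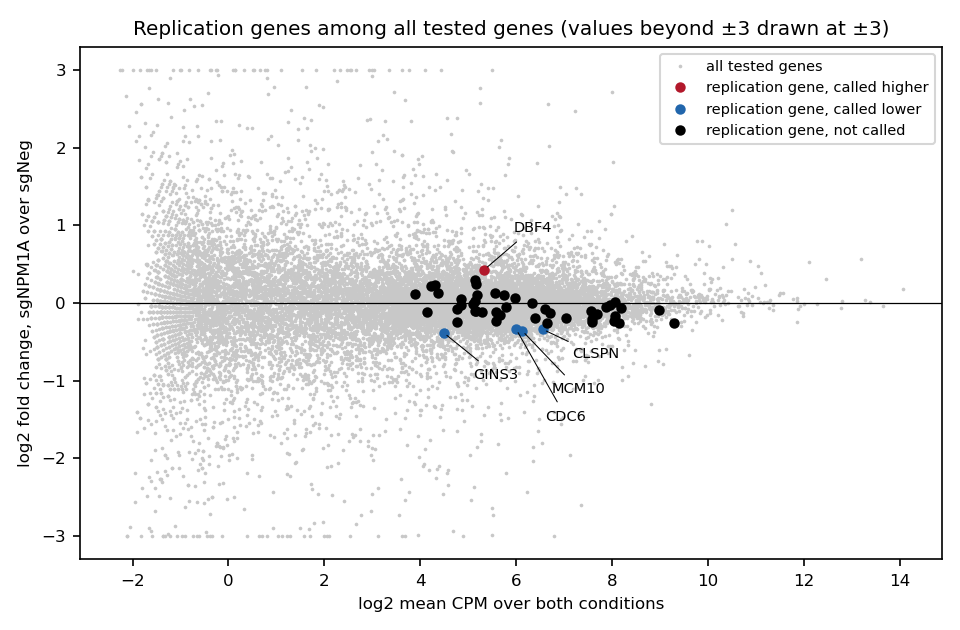
Log2 fold change of sgNPM1A over sgNeg (y axis) against log2 mean CPM of all libraries (x axis) for every tested gene in grey and for the 48 replication genes in colour, with the 5 called ones named. The replication genes sit in the middle and upper part of the expression range and close to 0, with DBF4 above and GINS3, MCM10, CLSPN and CDC6 below the rest.

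The precision limits what a gene without a call can mean. The 95% interval of the log2 fold change lay wholly within 1.25-fold in either direction for 26 of the 48 genes (54.17%), against 23.75% of all tested genes. For the other 22 a change past the threshold in at least 1 direction remained within the interval. All 48 intervals excluded a change of 2-fold. The lowest lower end was -0.60, in GINS3, and the highest upper end was 0.61, in DBF4. Summed over the 48 genes, expression was 5840 and 5689 CPM with sgNeg and 5239 and 5314 CPM with sgNPM1A. This was 0.592% and 0.576% of all counts in the sgNeg libraries and 0.516% and 0.523% in the sgNPM1A libraries, and the conditions did not overlap. Mean levels ran from 14.74 CPM for POLE2 to 629.1 CPM for MCM7, with a median of 54.57 CPM. The median gap between the 2 libraries of a condition was 0.09 on the log2 scale with sgNeg and 0.07 with sgNPM1A. The median absolute log2 fold change of 0.13 was larger than both gaps.

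**Figure D2:**
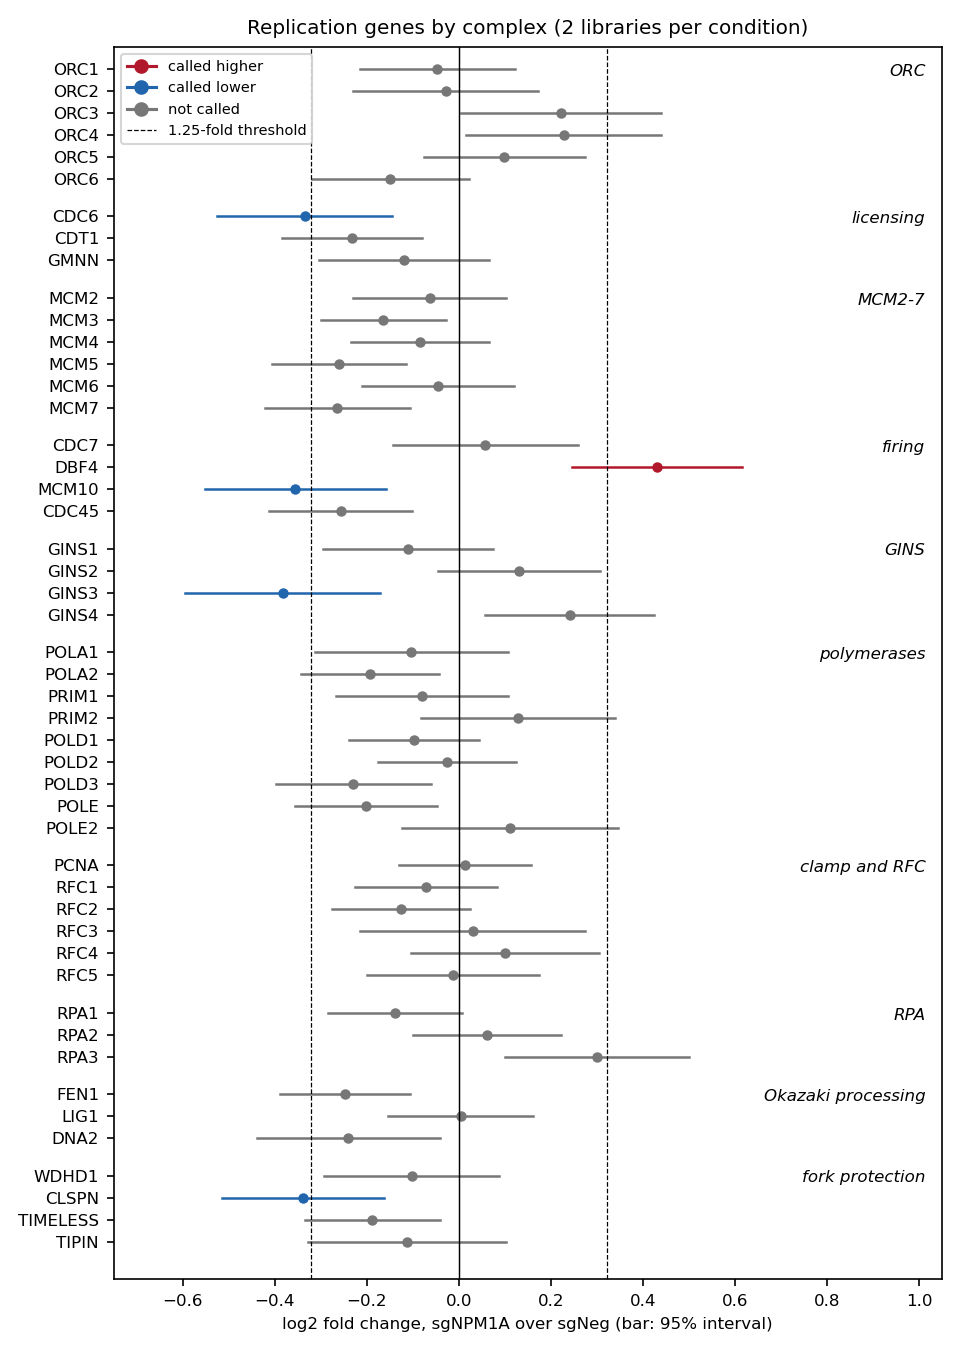
Log2 fold change of sgNPM1A over sgNeg with its 95% interval (x axis) for each of the 48 genes (y axis), grouped by complex, with dashed lines at a fold change of 1.25 in either direction. All 6 MCM2-7 genes, all 3 licensing genes and all 4 fork protection genes lie below 0, and the intervals of PCNA and the 5 RFC genes all lie between the dashed lines.

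The 6 ORC genes went in both directions and none was called. ORC4, a subunit of the ring that holds origin DNA, had the largest difference in the complex, with 17.82 and 18.73 CPM with sgNeg and 20.63 and 22.19 CPM with sgNPM1A. Both sgNPM1A libraries were above both sgNeg libraries, and the log2 fold change was 0.23 (SE 0.10, adjusted p = 0.108). ORC3, another subunit of the ring, had 0.22 (adjusted p = 0.125) and ORC5 had 0.10, both without overlap between conditions. ORC6, the subunit outside the ring that helps recruit MCM2-7, had -0.15 (adjusted p = 0.188). ORC1, whose level in cells changes with the cell cycle, had 58.42 and 54.25 CPM with sgNeg and 53.89 and 55.21 CPM with sgNPM1A. Its conditions overlapped, as did those of ORC2. Other genes contain 15.6% of the 50-base words of ORC4 transcripts and 12.4% of those of ORC6, so reads of these genes could be divided differently by another counting. This holds for 13 of the 48 genes, in which over 5% of the words are shared, and MCM2 (19.9%), TIPIN (20.6%), PRIM1 (14.6%), PRIM2 (12.8%), RFC5 (7.33%) and POLD1 (6.92%) are among them.

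The genes for the factors that license origins were all below 0. CDC6, the ATPase that joins ORC to load the helicase, had 76.99 and 65.72 CPM with sgNeg and 56.15 and 57.01 CPM with sgNPM1A. It fell by 0.33 on the log2 scale (SE 0.09, adjusted p = 0.0150). The sgNPM1A libraries lay close to each other while sgNeg 1 was 0.23 above sgNeg 2 on the log2 scale. Without sgNeg 1 the log2 fold change was -0.22 (adjusted p = 0.0602), without sgNPM1A 1 it was -0.32 (0.0912) and without sgNPM1A 2 it was -0.34 (0.0696), so the call of CDC6 was lost each time. The gene spans 40287879 to 40304657 on chromosome 17. CDT1, its partner in loading, had 274.0 and 296.7 CPM with sgNeg and 249.8 and 236.2 CPM with sgNPM1A. With a log2 fold change of -0.23 (SE 0.07, adjusted p = 0.0287) CDT1 passed the p threshold and not the fold threshold. GMNN, the inhibitor of CDT1, had 43.12, 38.88, 38.03 and 37.49 CPM in the same order and a log2 fold change of -0.12 (adjusted p = 0.339).

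All 6 genes of the MCM2-7 ring, the motor of the replicative helicase, had log2 fold changes below 0, from -0.26 to -0.05, with a median of -0.12. None was called. MCM7 had 715.8 and 657.1 CPM with sgNeg and 555.9 and 587.7 CPM with sgNPM1A, and its log2 fold change was -0.26 (SE 0.07, adjusted p = 0.0193). It passed both thresholds without sgNeg 2 (-0.32, adjusted p = 0.00891) and with limma-trend on quantile-normalized values (-0.32, adjusted p = 0.00801). It passed neither without sgNeg 1 (-0.20, adjusted p = 0.0560), without sgNPM1A 1 (-0.22, adjusted p = 0.271) or without sgNPM1A 2 (-0.30, adjusted p = 0.108). MCM7 shares 8.49% of its exonic bases with AP4M1 on the opposite strand, which was itself lower (-0.32, adjusted p = 0.0173), and the part of shared reads in this result was not tested. MCM5 had 319.0 and 301.9 CPM with sgNeg and 253.1 and 265.3 CPM with sgNPM1A, and its log2 fold change was -0.26 (SE 0.07, adjusted p = 0.0136). MCM3 had -0.16 (adjusted p = 0.0764) and MCM4 -0.08 (adjusted p = 0.410), both without overlap. MCM2 and MCM6 overlapped, with 313.8 and 280.4 CPM against 272.2 and 296.5 CPM for MCM2 and 252.3 and 224.3 CPM against 222.5 and 239.2 CPM for MCM6. The shared direction did not hold when libraries were left out, since MCM2 and MCM6 had 0.02 and 0.04 without sgNeg 1 and 0.00 and 0.01 without sgNPM1A 1. The differences between the MCM genes were not tested.

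Of the genes that fire loaded origins, MCM10 fell and DBF4 rose. DBF4, the activating subunit of CDC7, had 33.36 and 35.56 CPM with sgNeg and 44.63 and 48.30 CPM with sgNPM1A. All sgNPM1A values were above all sgNeg values, and the log2 fold change was 0.43 (SE 0.08, adjusted p = 0.00308), the largest of the 48 genes in size. It stayed between 0.38 and 0.49 with an adjusted p of at most 0.0480 when each library was left out in turn, and it was called each time. CDC7, the kinase itself, had 26.59, 30.08, 29.42 and 29.57 CPM in the order sgNeg 1, sgNeg 2, sgNPM1A 1 and sgNPM1A 2, with overlap between the conditions and a log2 fold change of 0.06 (adjusted p = 0.691). DBF4 lies on chromosome 7 from 87876493 to 87909553. Other genes contain 16.8% of its 50-base words, chiefly the pseudogene DBF4P1, which had between 2 and 10 counts in a library where DBF4 had between 848 and 1341. DBF4 also shares 3.16% of its exonic bases with SLC25A40, a mitochondrial carrier gene on the opposite strand, which had 590 and 571 counts with sgNeg and 792 and 928 counts with sgNPM1A (log2 fold change 0.45, adjusted p = 0.00700). The strand setting of the counting is not given in the sources used here, and the part of shared reads in the rise of DBF4 was not tested.

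MCM10, which helps activate the assembled helicase, had 85.05 and 71.59 CPM with sgNeg and 59.48 and 62.95 CPM with sgNPM1A. It fell by 0.36 on the log2 scale (SE 0.09, adjusted p = 0.0133). As in CDC6, sgNeg 1 was the highest library. Without sgNeg 1 the value for MCM10 was -0.23 (adjusted p = 0.0580) and without sgNPM1A 1 it was -0.31 (adjusted p = 0.0989), and it was called in neither case. MCM10 lies on chromosome 10 from 13161558 to 13211110, and none of its 50-base words occurs in another gene. CDC45, the helicase cofactor loaded with GINS, had 106.6 and 112.6 CPM with sgNeg and 94.43 and 89.07 CPM with sgNPM1A. Its log2 fold change of -0.26 (SE 0.07, adjusted p = 0.0204) was under the fold threshold.

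The 4 GINS subunits, which act as 1 complex in equal numbers, did not share a direction. GINS3 had 25.10 and 25.75 CPM with sgNeg and 20.66 and 18.33 CPM with sgNPM1A, and fell by 0.38 on the log2 scale (SE 0.10, adjusted p = 0.0134). Without sgNPM1A 2, its lowest library, the log2 fold change was -0.30 (adjusted p = 0.201) and GINS3 was not called. GINS3 lies on chromosome 16 from 58392471 to 58406147. A noncoding gene on the opposite strand covers 10.9% of its exonic bases and had 0 counts in all libraries. GINS4 had 34.11 and 31.51 CPM with sgNeg and 38.21 and 39.33 CPM with sgNPM1A, and its log2 fold change was 0.24 (SE 0.08, adjusted p = 0.0543). GINS2 had 0.13 (adjusted p = 0.266) and GINS1 -0.11 (adjusted p = 0.372), both without overlap between the conditions. Other genes contain 21.6% of the 50-base words of GINS4.

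**Figure D3:**
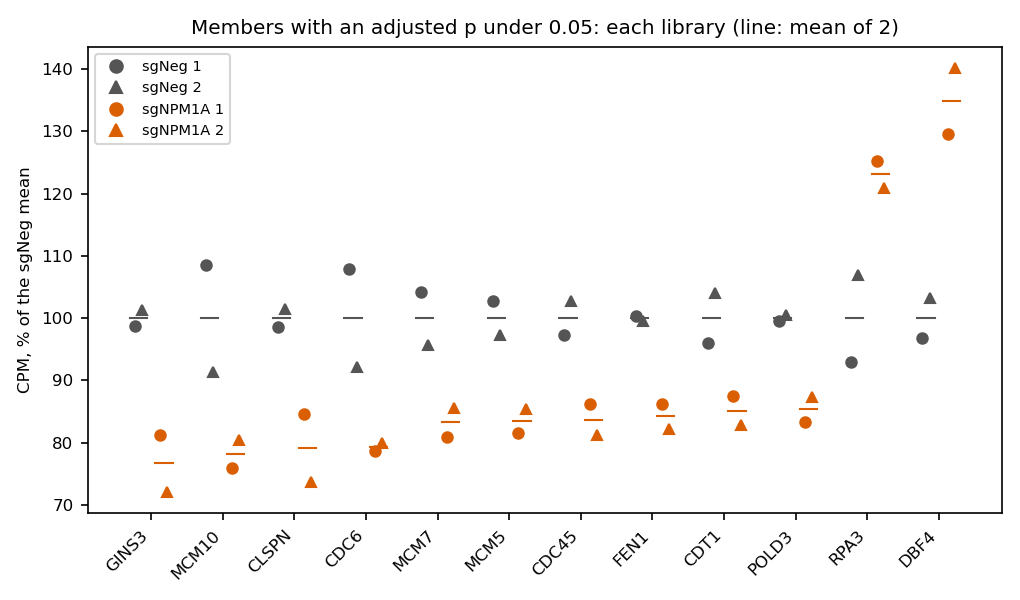
CPM of each library as a percentage of the sgNeg mean (y axis) for the 12 replication genes with an adjusted p under 0.05 (x axis, ordered by fold change), with short lines at the mean of 2 libraries. In each of the 12 genes both sgNPM1A libraries lie on the same side of both sgNeg libraries, and sgNeg 1 stands above sgNeg 2 in MCM10 and CDC6.

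Of the 9 genes for polymerases and primase, 7 were below 0 and none was called. POLD3, an accessory subunit of polymerase delta, had 51.26 and 51.74 CPM with sgNeg and 42.94 and 44.95 CPM with sgNPM1A, and its log2 fold change was -0.23 (SE 0.08, adjusted p = 0.0474). POLE, the catalytic subunit of the leading-strand polymerase, had -0.20 (adjusted p = 0.0546), and POLA2, the second subunit of polymerase alpha, had -0.19 (adjusted p = 0.0592), both without overlap. Other genes contain 21.2% of the 50-base words of POLA2. POLD1, the catalytic subunit of polymerase delta, had -0.10 and its partner POLD2 -0.03. POLA1, the catalytic subunit of polymerase alpha, also had -0.10, with overlap. The primase genes PRIM1 and PRIM2 had -0.08 and 0.13. POLE2, the least abundant of the 48 genes by CPM, had 14.48 and 13.86 CPM with sgNeg and 14.64 and 15.99 CPM with sgNPM1A (log2 fold change 0.11, adjusted p = 0.488).

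The clamp and its loader were the group in which the largest difference was smallest among the 10 groups. PCNA had 258.9 and 274.4 CPM with sgNeg and 265.4 and 272.7 CPM with sgNPM1A, and its log2 fold change was 0.01 with a 95% interval from -0.13 to 0.16. The largest difference among the RFC genes was that of RFC2, with 106.5 and 112.6 CPM against 101.1 and 99.87 CPM (log2 fold change -0.12, adjusted p = 0.210). RFC1 had -0.07, RFC3 0.03, RFC4 0.10 and RFC5 -0.01. For all 6 genes the 95% interval lay within 1.25-fold in either direction. The conditions overlapped in PCNA, RFC3, RFC4 and RFC5. The sign of PCNA and RFC3 turned with another scaling, to -0.03 and -0.01 with library size only.

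RPA3, the smallest subunit of the single-strand binding protein RPA, had 29.66 and 34.13 CPM with sgNeg and 39.97 and 38.57 CPM with sgNPM1A. Its log2 fold change of 0.30 (SE 0.09, adjusted p = 0.0315) passed the p threshold and stayed just under the fold threshold, and without sgNeg 2 it was 0.41 (adjusted p = 0.0109) and passed both. RPA3 passed neither without sgNeg 1 (0.20, adjusted p = 0.123), without sgNPM1A 1 (0.28, adjusted p = 0.184), with DESeq2 (0.30, adjusted p = 0.0612) or with library size only (0.26, adjusted p = 0.0554), and without sgNPM1A 2 it missed the p threshold (0.33, adjusted p = 0.105). RPA1, the large subunit that holds the DNA, had 223.8 and 208.8 CPM with sgNeg and 194.6 and 198.3 CPM with sgNPM1A (log2 fold change -0.14, adjusted p = 0.150). RPA2, the middle subunit, had 0.06 (adjusted p = 0.590). Among the genes that finish Okazaki fragments, the flap nuclease gene FEN1 had 210.3 and 208.6 CPM with sgNeg and 180.6 and 172.3 CPM with sgNPM1A. With -0.25 (SE 0.06, adjusted p = 0.0150) it too was under the fold threshold. DNA2, a nuclease and helicase for long flaps, had -0.24 (adjusted p = 0.0740) without overlap, and LIG1, the ligase that seals the fragments, had 0.00 (adjusted p = 0.976) with overlap.

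The genes of the fork protection group were all below 0, with a median log2 fold change of -0.15. CLSPN, whose product Claspin passes the checkpoint signal from stalled forks to CHK1, had 103.4 and 106.5 CPM with sgNeg and 88.79 and 77.25 CPM with sgNPM1A. It fell by 0.34 on the log2 scale (SE 0.08, adjusted p = 0.00956). Without sgNPM1A 2, the lowest library, CLSPN had -0.24 (adjusted p = 0.236), and without sgNeg 2 it had -0.32 (adjusted p = 0.0368) and missed the fold threshold. CLSPN spans 35720213 to 35769978 on chromosome 1, and the gene that overlaps it on the opposite strand had at most 2 counts in a library. TIMELESS, which travels with the fork, had 141.5 and 138.7 CPM with sgNeg and 126.4 and 119.5 CPM with sgNPM1A (log2 fold change -0.19, adjusted p = 0.0593). Its binding partner TIPIN had -0.11 (adjusted p = 0.445) and WDHD1, which links the helicase to polymerase alpha, had -0.10 (adjusted p = 0.431).

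For comparison between genes, counts were divided by exonic length and given as TPM. PCNA was the most abundant transcript of the 48 per length, with a mean of 607.5 TPM with sgNeg, and ORC4 the least, with 6.552 TPM. The MCM2-7 genes had unequal levels in the sgNeg libraries although their proteins form a ring with 1 of each. Their means were 442.9 TPM for MCM7, 249.5 TPM for MCM3, 201.7 TPM for MCM2, 184.5 TPM for MCM6, 168.7 TPM for MCM4 and 136.6 TPM for MCM5. CDT1 had 330.5 TPM, and its inhibitor GMNN 52.99 TPM. These levels rest on the annotated exons, so a gene with long exons that are not used has a level that is too low.

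**Figure D4:**
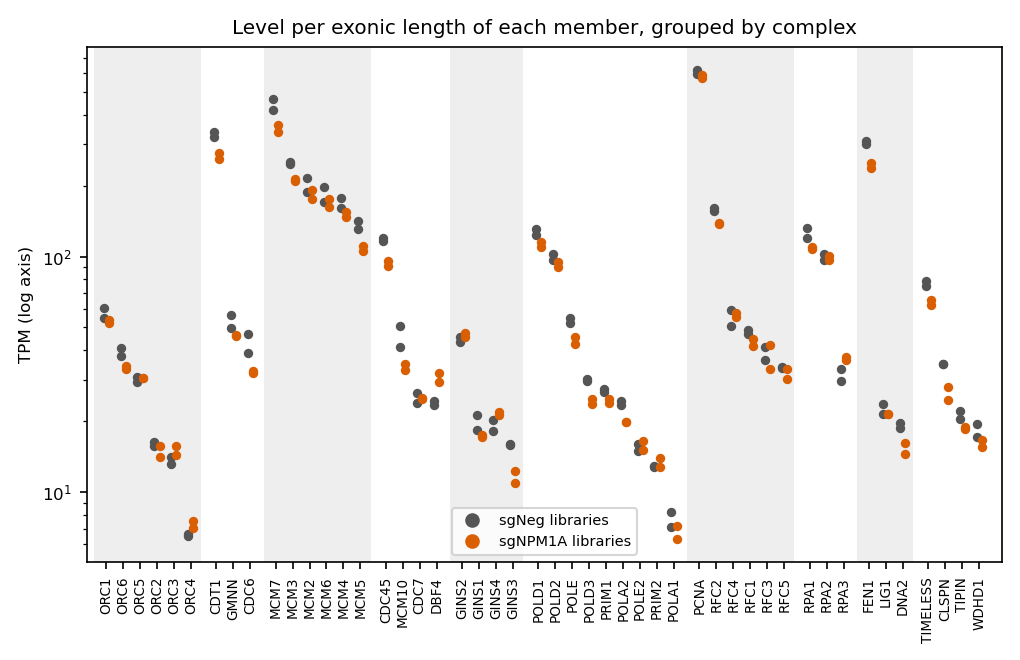
TPM of each library on a log axis (y axis) for the 48 genes (x axis), grouped by complex in shaded blocks and ordered within each block by level, in grey for sgNeg and in orange for sgNPM1A. The levels run from ORC4 and POLA1 at the bottom to PCNA at the top, and on this scale the 4 libraries of a gene lie close together.

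Ratios of partner genes within a library do not depend on how libraries are scaled to each other. The pairs were chosen after the values had been seen and are given as a description. DBF4 over CDC7 in TPM was 0.983 and 0.926 with sgNeg and 1.19 and 1.28 with sgNPM1A, a ratio of means of 1.29. GINS4 over GINS3 was 1.27 and 1.15 with sgNeg and 1.73 and 2.01 with sgNPM1A, so the mean ratio was 1.55 times as high. RPA3 over RPA1 was 0.225 and 0.278 against 0.349 and 0.330, and ORC4 over ORC1 was 0.107 and 0.121 against 0.134 and 0.141. In these 4 pairs the conditions did not overlap. CDT1 over its inhibitor GMNN was 5.70 and 6.85 with sgNeg and 5.89 and 5.65 with sgNPM1A, with overlap.

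**Figure D5:**
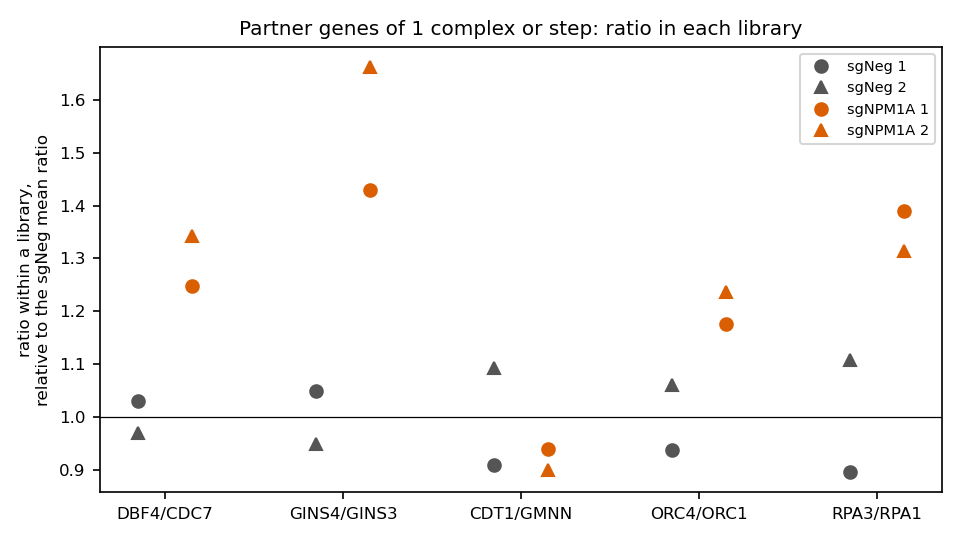
Ratio of 2 partner genes within each library, divided by its mean over the sgNeg libraries (y axis), for 5 pairs (x axis). The sgNPM1A libraries lie above the sgNeg libraries for DBF4/CDC7, GINS4/GINS3, ORC4/ORC1 and RPA3/RPA1, and for CDT1/GMNN sgNPM1A 2 lies lowest and sgNPM1A 1 between the sgNeg libraries.

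A list of 37 other replication genes covered further polymerase subunits and clamp loaders, firing factors, CDT1 turnover, chromatin assembly, primer removal and topology. The list was chosen with earlier results of these data known, and its values come from the same libraries. Its similar picture is therefore not an independent test of the replication genes described above. All 37 were tested, and 29 were below 0, beside 49.97% of all tested genes. The median log2 fold change was -0.09, against 0.00 over all tested genes. DSCC1, a subunit of an alternative clamp loader, was the 1 gene called, where 20.8% of all tested genes were called. It had 11.84 and 11.27 CPM with sgNeg and 8.826 and 8.536 CPM with sgNPM1A. It fell by 0.41 on the log2 scale (SE 0.12, adjusted p = 0.0242), and the call was lost with DESeq2 (adjusted p = 0.0906), without sgNeg 1 (0.0722), without sgNPM1A 1 (0.0930) and without sgNPM1A 2 (0.162). CHTF18, the large subunit of the same loader, had -0.24 (adjusted p = 0.0335), and CHAF1A, a subunit of the histone chaperone that follows PCNA, had -0.25 (adjusted p = 0.0208). DBF4B, the paralog of DBF4 and the other activator of CDC7, had 43.39 and 43.55 CPM with sgNeg and 41.33 and 41.24 CPM with sgNPM1A (log2 fold change -0.07, adjusted p = 0.525).

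The kinase and cyclin genes of S phase were set beside the replication genes. CDK2, the kinase that acts with cyclins E and A, had 62.16 and 64.36 CPM with sgNeg and 45.85 and 46.46 CPM with sgNPM1A. It fell by 0.45 on the log2 scale (SE 0.07, adjusted p = 0.000974) and stayed called when each library was left out in turn. CCNE2, the gene of cyclin E2, had 9.166 and 6.718 CPM with sgNeg and 4.987 and 4.574 CPM with sgNPM1A. It fell by 0.73 (SE 0.17, adjusted p = 0.00924), and without sgNeg 1 its log2 fold change was -0.49 (adjusted p = 0.0640). CCNE1 had -0.19 (adjusted p = 0.135) and CCNA2 0.09 (adjusted p = 0.520). Of 10 mitosis genes, 3 were below 0, beside 49.97% of all tested genes, and the median log2 fold change was 0.03. In this list 1 gene was called higher, where 10.5% of all tested genes were. MKI67, CDK1, CCNB1, CCNB2, PLK1, AURKB, BUB1, TTK and CDC20 were not called. AURKA, a kinase of the spindle poles, had 79.90 and 69.62 CPM with sgNeg and 92.17 and 95.62 CPM with sgNPM1A, and rose by 0.33 (SE 0.08, adjusted p = 0.0116). AURKA was not called with library size only (0.29), without sgNeg 2 (0.23) or without sgNPM1A 2 (0.30).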

How the data were processed

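RNA-Seq gene counts of 4 libraries, 2 per condition, were used. The authors mapped the reads to hg38 with STAR and deposited raw counts per Ensembl gene, without normalization. The counting program, its annotation and its strand setting are not given in the sources used here. Libraries were grouped by the guide named in the labels, and the study calls them biological replicates. The fit used edgeR 4.0.16 in R 4.3.3: filterByExpr with a minimum count of 10, TMM normalization and the robust quasi-likelihood F test, two-sided, with Benjamini-Hochberg adjustment over all tested genes. The p-values set each difference against the spread between these libraries, with the variance shared between genes. The 95% intervals use the standard error and t distribution of this fit. The script was tested on simulated data.

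The genes, their complexes and the other lists were chosen with earlier results of these data known. Named with their values in each library are NPM1, called genes, the largest difference in each complex, the most and least abundant gene, and called genes of the other lists. Further genes were added for their roles. Not every marker of other cell types that was examined is reported here.

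TPM used exonic lengths of GENCODE v44lift37, found for 55603 of 57992 genes. The same annotation, of another build than the counts, gave overlaps and shared 50-base words. Positions and promoters are RefSeq's on GRCh38.p14. Results were recomputed with DESeq2 1.42.0, with limma-trend (limma 3.58.1) after quantile normalization, with scaling by RLE factors or by library size alone, with no filter, with a filter of 10 counts in each library, with the replicate number as a block, with the fold threshold removed or raised to 1.5, and without each library in turn.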

Additional observations from a re-analysis of the deposited data

How the results depend on the processing

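The same 5 genes were called with DESeq2, RLE size factors, library size only, both other filters and limma-trend, which added MCM7. The replicate block, with the number in the labels as a term, gave 1 gene higher and 4 lower, the same genes, and NPM1 at -0.2202 (adjusted p = 0.156). By adjusted p alone it gave 4 replication genes lower, beside 10.91% of all tested genes, and 1 higher, beside 11.06%. Without the block these were 10 lower, beside 13.09%, and 2 higher, beside 12.92%. The numbers share no stated origin, and deviations of same-numbered libraries had a correlation of -0.258 across tested genes, -0.534 across those with a mean CPM above 10 and -0.425 across the 48 replication genes. The crossed block, chosen after seeing the data, gave 1 replication gene higher and 4 lower, and 1955 and 1918 of all genes. By adjusted p alone the crossed block gave 18 replication genes lower, beside 20.99% of all tested genes, and 5 higher, beside 20.42%. NPM1 was -0.42 with limma-trend. With no fold threshold 2 replication genes were higher and 10 lower, and 2030 and 2057 of all genes. At a fold of at least 1.5 there were 0 and 0, and 969 and 969 of all genes. The median of the replication genes was -0.13 with library size only, which moved the median of all genes to -0.04.

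When each library was left out in turn, with the lone library assumed to vary like the others, the median lay between -0.13 and -0.052. NPM1 lay between -0.26 and -0.18. DBF4 was called higher each time, and the genes called lower changed. Signs near 0 turned. PCNA was -0.0055 with limma-trend and -0.027 with library size only, RFC3 was -0.010 with library size only, and LIG1 was -0.0052 with limma-trend, -0.037 with library size only and -0.002 with no filter. Leaving out libraries moved MCM2 from -0.14 to 0.019, MCM6 from -0.13 to 0.041, ORC1 from -0.098 to 0.007, ORC2 from -0.11 to 0.050, CDC7 from -0.029 to 0.15, POLD2 from -0.082 to 0.032, PCNA from -0.029 to 0.057, RFC3 from -0.14 to 0.19, RFC4 from -0.026 to 0.24, RFC5 from -0.074 to 0.052 and LIG1 from -0.042 to 0.052. The causes were not tested.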

Other observations

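Exons of 23 of the 48 replication genes overlap exons of another annotated gene, and in 12 of them the gene with the largest overlap was itself tested. These neighbours were listed after the values of the replication genes had been seen. Of the 12 neighbours, 3 were called higher (SLC25A40, FADS2 and GSE1), beside 10.5% of all tested genes. Another 2 were called lower (AP4M1 and WSB2), beside 10.3%. SLC25A40 lay on the same side of 0 as DBF4, AP4M1 as MCM7 and GSE1 as GINS2. RFC5, which overlaps WSB2, was too near 0 to have a side, from -0.074 to 0.052 when libraries were left out. Neighbours that were not called lay partly on the same side as their replication genes and partly on the other. FADS2 lay on the other side of 0 from FEN1. FADS2, a fatty acid desaturase gene that shares 2.23% of the exonic bases of FEN1 on the same strand, had a mean of 159 CPM with sgNeg and 206 CPM with sgNPM1A (log2 fold change 0.38, adjusted p = 0.0320), where FEN1 had -0.25. WSB2, which shares 10.6% of the exonic bases of RFC5 on the opposite strand, had 25.6 and 18.5 CPM (-0.47, adjusted p = 0.0159), where RFC5 had -0.01. GSE1, on the opposite strand of GINS2, had 90.7 and 117 CPM (0.37, adjusted p = 0.00201), where GINS2 had 0.13 (adjusted p = 0.266). The adjusted p-values are those of edgeR's quasi-likelihood test, and differences between neighbours were not tested.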
